A study of Mus musculus with 14 samples.

Results

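The FOS, JUN and EGR immediate early genes were followed here as 10 named genes across all groups of a microarray series. They are the FOS and JUN family members Fos, Fosb, Jun, Junb and Jund, the zinc finger genes Egr1 and Klf4, the early response genes Ier2 and Ier3, and the phosphatase gene Dusp1. A gene was represented by its brightest probe set annotated with a single symbol. Each of the 10 had exactly 1 such probe set, so brightness decided none of them, and they stand among 19938 genes measured.

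The cells were BH1-Bcl2-Ik1ER, an Ikaros-deficient line of mouse pre-B cells, Ikaros being the zinc finger transcription factor of lymphoid cells. Every group carried the same pair of retroviruses, one for the survival protein Bcl2 and one for Ikaros fused to the estrogen receptor, and doubly transduced cells had been sorted. The fusion is switched on with 4-hydroxytamoxifen (4OHT, 100 nM), and IL-7, the cytokine that sustains early B cells, came from 8% conditioned medium that was left out for withdrawal. Each of the 7 groups held 2 of the 14 arrays, taken in separate experiments. They comprised cells harvested at time 0, cells cultured for 6 h under 4OHT either in IL-7 or without it, and cells cultured for 24 h with IL-7 alone, with IL-7 and 4OHT, with IL-7 withdrawn and no 4OHT (withdrawal alone), and with both treatments, 4OHT and withdrawal. No array came from cells without the fusion, so 4OHT itself and Ikaros activity cannot be told apart. No 6 h array lacked 4OHT, so 6 h of culture and 4OHT cannot be told apart. Withdrawal left out the whole conditioned medium, so loss of IL-7 and loss of anything else in that medium cannot be told apart.

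Immediate early genes are transcribed within minutes of a stimulus without new protein synthesis, mainly through serum response factor (SRF) with its ternary complex factors and through CREB, downstream of RAS, ERK and related kinases. FOS and JUN proteins dimerise into AP-1, which binds its own class of site, whereas EGR proteins bind GC-rich sites and are held back by the NAB corepressors. In B cell precursors ERK signalling runs downstream of the IL-7 receptor and of the pre-B cell receptor, and dual-specificity phosphatases such as the Dusp1 product limit it or its sister kinases.

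Values below are RMA signals on the log2 scale, in which a difference of 1 doubles the signal, and each group value is given for experiment 1 and then experiment 2. A difference is the mean of 2 arrays minus the mean of 2 arrays, with its standard error (SE) from limma. The threshold for passing was an adjusted p under 0.05 (Benjamini-Hochberg across the 19938 genes), and groups overlap where the array ranges of both meet. The p-values measure the spread between these arrays of 1 cell line, and in RNA from whole cultures fewer expressing cells and less RNA per cell cannot be told apart. Array medians lay between 7.23 and 7.43, and replicate arrays had correlations of 0.9933 to 0.9965 across all probe sets. The mean of 7 pre-B markers was 12.46 to 12.83 over the arrays, against 6.28 to 6.52 for 6 T cell markers, 6.38 to 6.65 for 6 myeloid, 7.03 to 7.29 for 3 erythroid, 6.30 to 6.79 for 3 plasma cell and 6.47 to 6.79 for 5 stromal markers. The median of all values was 7.33. In their highest group, 1 of the T cell, 1 of the myeloid, 2 of the erythroid, 1 of the plasma cell and 2 of the stromal markers had a mean above it. Of these markers of other cells 2, 1, 0, 2 and 0 passed in at least 1 of the 12 comparisons described below, as did 41.3% of all genes. The myeloid one was Itgam, an integrin chain, which like Jun and Jund rose on IL-7 withdrawal at 24 h, namely by 0.60 ± 0.16 in cells without 4OHT (adjusted p = 0.0225) and by 0.84 ± 0.16 in cells given 4OHT (adjusted p = 0.00259). Sdc1, a plasma cell surface proteoglycan, fell at 24 h wherever Ier2 passed as lower, and on withdrawal with 4OHT too. Its differences were -0.40 ± 0.11 and -0.41 ± 0.11 for 4OHT with and without IL-7 (adjusted p = 0.0332 and 0.02), -0.78 ± 0.11 and -0.79 ± 0.11 for withdrawal without and with 4OHT (adjusted p = 0.000294 and 0.000186), and -1.19 ± 0.11 for both treatments (adjusted p = 2.9e-06). The other passing plasma cell marker, Prdm1, went the other way on withdrawal without 4OHT. It read 6.15 and 6.10 with IL-7 alone and passed as higher, at 6.55 and 6.32, with withdrawal alone. With 4OHT and no IL-7 Prdm1 passed as lower, at 5.99 and 5.94. The narrow range of the pre-B mean hid opposite moves, as 6 of the 7 pre-B markers passed in at least 1 of the 12 comparisons. For both treatments against neither 4 were higher and 2 lower, where 33.6% of all genes passed. There the mean of Pax5 went from 11.75 to 12.83 and that of Vpreb1 from 10.92 to 9.88. Heat shock genes, which move with handling and stress, averaged 8.97 to 9.42 over 6 genes and were lowest on the 24 h arrays with both treatments. Among them the chaperone gene Hspa1a fell with 4OHT at 24 h, as Ier2 and Ier3 did, with differences of -0.66 ± 0.08 with IL-7 (adjusted p = 0.000154) and -0.54 ± 0.08 without it (adjusted p = 0.000319). Its mean was lowest with IL-7 and 4OHT (8.25) and 8.52 with both treatments. Hsph1, another of the 6, was lowest with both treatments (mean 9.11, against 10.75 with neither). The part of these markers in the results below was not tested.

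Promoter windows of 3 members are shown because Jun and Jund had the widest ranges of group means and Dusp1 the next. Each window is the 250 bases before the RefSeq gene start in the build GRCm38.p6, written 5′ to 3′ on the gene's strand. The Jun window is chr4:95052223-95052472 on the minus strand, that of Jund chr8:70697489-70697738 on the plus strand and that of Dusp1 chr17:26508473-26508722 on the minus strand. Capitals mark the Ikaros core motif TGGGAA in Jun and its reverse complement in Jund, and the cAMP response element TGACGTCA, the site bound by CREB, in Dusp1.
Jun: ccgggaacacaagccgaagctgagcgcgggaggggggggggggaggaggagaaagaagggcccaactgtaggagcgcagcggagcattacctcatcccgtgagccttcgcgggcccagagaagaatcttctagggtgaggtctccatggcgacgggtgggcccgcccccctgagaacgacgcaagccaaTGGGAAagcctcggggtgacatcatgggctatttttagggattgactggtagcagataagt
Jund: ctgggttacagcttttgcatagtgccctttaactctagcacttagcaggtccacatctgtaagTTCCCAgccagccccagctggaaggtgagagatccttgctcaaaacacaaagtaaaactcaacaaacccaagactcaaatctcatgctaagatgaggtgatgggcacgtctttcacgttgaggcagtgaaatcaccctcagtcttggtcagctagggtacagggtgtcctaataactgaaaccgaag
Dusp1: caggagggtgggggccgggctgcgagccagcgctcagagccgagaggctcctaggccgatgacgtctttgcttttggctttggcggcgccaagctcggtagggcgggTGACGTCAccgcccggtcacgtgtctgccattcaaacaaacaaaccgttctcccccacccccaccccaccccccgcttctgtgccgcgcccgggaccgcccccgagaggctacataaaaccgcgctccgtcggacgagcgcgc
The Ikaros core stood 61 to 56 bases before the start of Jun and 187 to 182 bases before that of Jund. Among the 8 members whose windows were searched these were the only matches to it, while 21.6% of all 32851 windows of this length held one. The Dusp1 element lay 143 to 136 bases before the start, and 1.55% of windows held one. Windows were also searched for the CArG box bound by SRF (0 of 8 members, 1.47% of windows), the AP-1 site TGACTCA (0 of 8, 4.46%) and the STAT motif TTCNNNGAA (0 of 8, 7.02%). The EGR site GCGNGGGCG occurred in Fosb and Klf4 (4.7% of windows) and TATAAA in Fos (7.59%). All motifs were read on both strands except TATAAA, which was read on the gene's strand, and a match says only that these letters occur. A missing match covers these 250 bases alone, not sites further upstream or within the gene. The windows of Egr1 and Ier2 were not analysed here, so the member counts, those of 0 included, say nothing about these genes.

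**Figure D1:**
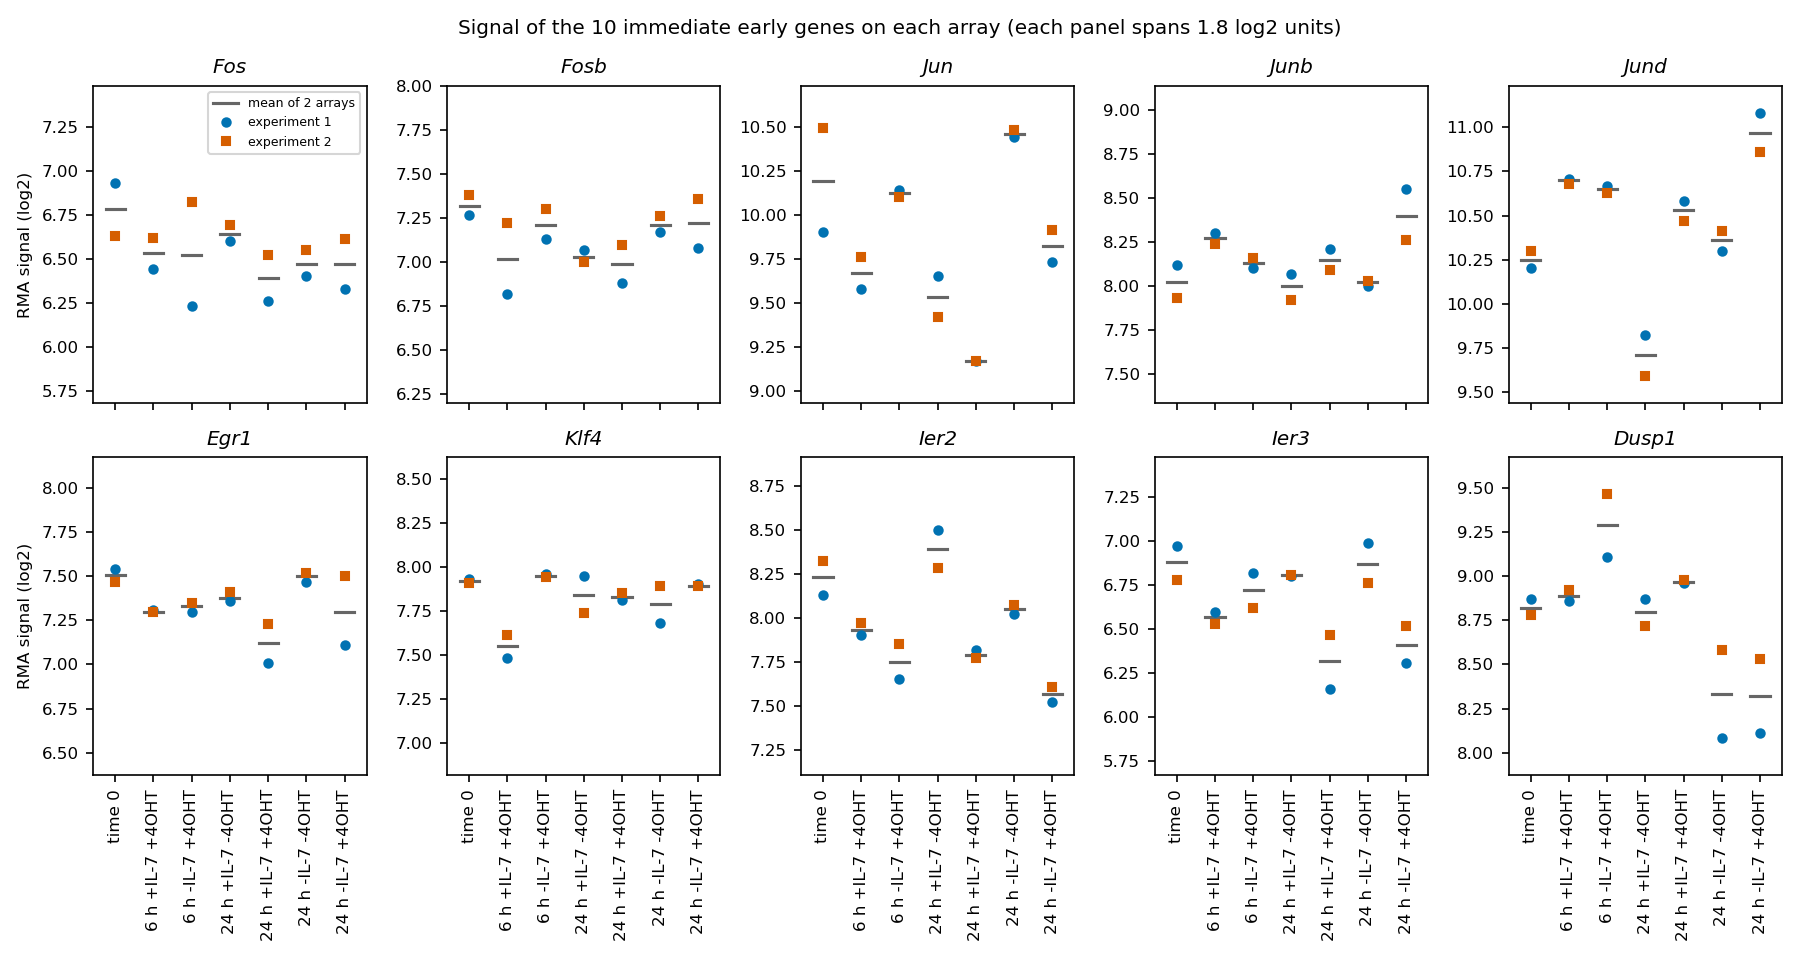
RMA signal (log2, vertical axis) of the 10 genes on every array, by group (horizontal axis). Circles are experiment 1, squares experiment 2 and bars the mean of both, and every panel spans the same 1.8 log2 units. Jun, Jund, Ier2 and Dusp1 range widely between groups, whereas Fos, Fosb and Egr1 stay within 0.39 between their highest and lowest group means.

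Jun and Jund, both AP-1 subunits, rose on IL-7 withdrawal at 24 h, and with 4OHT after withdrawal Jund rose while Jun fell. Jun, the AP-1 subunit that drives proliferation in many cell types, was highest in cells withdrawn from IL-7 for 24 h without 4OHT and lowest in cells kept in IL-7 with 4OHT. Jund, usually the most constant JUN subunit, was highest in cells given both treatments and lowest in cells given neither.

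Jun read 9.90 and 10.49 at time 0, 9.58 and 9.76 at 6 h with 4OHT and IL-7, and 10.14 and 10.10 at 6 h with 4OHT and no IL-7. At 24 h it read 9.65 and 9.42 with IL-7 alone, 9.17 and 9.17 with IL-7 and 4OHT, 10.44 and 10.48 with withdrawal alone, and 9.73 and 9.91 with 4OHT and no IL-7. At 24 h no group overlapped another, and both arrays without IL-7 lay above both arrays with it at either 4OHT setting. In order of group means, the 24 h withdrawn cells and time 0 overlapped, as did time 0 and the 6 h withdrawn cells, and the 6 h cells in IL-7 overlapped with both of their neighbours in the order.

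Withdrawal of IL-7 raised Jun by 0.93 ± 0.15 (SE, n = 2 per group, adjusted p = 0.0011) without 4OHT, a 1.9-fold change, and by 0.65 ± 0.15 (adjusted p = 0.00777) with it. The 4OHT difference was -0.64 ± 0.15 (adjusted p = 0.0125) after withdrawal, which passed, and -0.37 ± 0.15 (adjusted p = 0.175) with IL-7, which did not. The difference between these 4OHT effects, the interaction, was -0.28 ± 0.22 (adjusted p = 0.761), so the effects were not shown to differ. From time 0 to 24 h with IL-7 alone Jun fell by 0.66 ± 0.15 on the log2 scale (adjusted p = 0.0416), with time 0 arrays that differed by more than any other pair of Jun arrays. This last call was lost without the experiment 2 array of time 0 (-0.36, adjusted p = 0.298) or either 24 h array (-0.77, adjusted p = 0.0587, without experiment 1 and -0.55, adjusted p = 0.301, without experiment 2), after renewed quantile normalization (-0.60, adjusted p = 0.0634) and in a fit of the compared arrays alone (adjusted p = 0.144). Leaving out either 24 h array with withdrawal alone, or the experiment 1 array with 4OHT, ended the 4OHT call after withdrawal (-0.66 to -0.55, adjusted p = 0.0651 to 0.0961). Without the experiment 2 array given both treatments the withdrawal call under 4OHT ended as well (0.56, adjusted p = 0.0654).

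At 6 h the Jun differences were -0.52 ± 0.15 (adjusted p = 0.0571) for 4OHT culture against time 0 and 0.45 ± 0.15 (adjusted p = 0.0753) for withdrawal under 4OHT. Neither passed, although the groups did not overlap. With the experiment number as a block both passed (adjusted p = 0.0214 and 0.0324), as did the difference of -0.51 ± 0.15 between 24 h and 6 h of 4OHT with IL-7 (adjusted p = 0.105, blocked 0.0358). A fit of the compared arrays alone called the withdrawal difference at 6 h and the last one too (adjusted p = 0.0309 and 0.0333). The culture difference rested on the time 0 arrays, being -0.82 (adjusted p = 0.00168) without the experiment 1 array and -0.22 (adjusted p = 0.393) without the experiment 2 array, and it passed with dim genes left out (adjusted p = 0.0431). Against the 24 h culture with IL-7 alone as reference, an alternative chosen after seeing the data, the 6 h culture difference was 0.14 (adjusted p = 0.656) rather than -0.52.

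Jund read 10.20 and 10.30 at time 0, 10.71 and 10.68 at 6 h with 4OHT and IL-7, and 10.67 and 10.63 at 6 h with 4OHT and no IL-7. The 24 h values were 9.82 and 9.59 with IL-7 alone, 10.58 and 10.47 with IL-7 and 4OHT, 10.30 and 10.41 with withdrawal alone, and 11.08 and 10.86 with 4OHT and no IL-7. Each treatment at 24 h placed both of its arrays above both arrays without it. The least separated neighbours in the order of group means were the 6 h groups, whose difference of -0.05 ± 0.10 (adjusted p = 0.882) lay within its SE, and the 24 h withdrawn cells and time 0, whose ranges met at 10.30.

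4OHT raised Jund by 0.82 ± 0.10 (adjusted p = 0.0002) with IL-7 and by 0.61 ± 0.10 (adjusted p = 0.000831) without it. Withdrawal raised it by 0.65 ± 0.10 (adjusted p = 0.000552) without 4OHT and by 0.44 ± 0.10 (adjusted p = 0.00509) with it. Cells given both treatments stood 1.26 ± 0.10 above cells given neither (adjusted p = 9.38e-07), a 2.4-fold difference. The interaction was -0.21 ± 0.14 (adjusted p = 0.698), with a 95% confidence interval of -0.51 to 0.09. The rise under withdrawal with 4OHT did not pass without the experiment 1 array given both treatments (0.33, adjusted p = 0.0527), while the other Jund treatment calls at 24 h passed whichever compared array was left out.

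Jund was also higher after 6 h of culture with 4OHT than at time 0, by 0.45 ± 0.10 (adjusted p = 0.0116), and lower after 24 h with IL-7 alone, by -0.55 ± 0.10 (adjusted p = 0.0132). The 6 h call ended without the experiment 1 array of time 0 (0.40, adjusted p = 0.0873) or of the 6 h group (0.43, adjusted p = 0.0776). The 24 h call ended without the experiment 2 array of time 0 (-0.50, adjusted p = 0.127) or of the 24 h group (-0.43, adjusted p = 0.147), and in a fit of the compared arrays alone (adjusted p = 0.0679). Against the 24 h culture with IL-7 alone in place of time 0, the 6 h difference was 0.99 (adjusted p = 8.77e-05). Between 6 h and 24 h of 4OHT without IL-7 the Jund difference was 0.32 ± 0.10 (adjusted p = 0.053, blocked 0.0218), and the withdrawal effect under 4OHT changed with time by 0.49 ± 0.14 (adjusted p = 0.0668, blocked 0.0247). Both passed after quantile normalization (adjusted p = 0.0292 and 0.0232), with dim genes left out (adjusted p = 0.0372 and 0.0475) and without the experiment 2 array given both treatments (0.43, adjusted p = 0.0296, and 0.60, adjusted p = 0.0359).

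Junb, the JUN subunit that often opposes Jun in growth control, varied less. At 24 h it read 8.07 and 7.92 with IL-7 alone, 8.21 and 8.09 with IL-7 and 4OHT, 8.00 and 8.03 with withdrawal alone, and 8.55 and 8.26 with 4OHT and no IL-7. Both arrays given both treatments lay above every other 24 h array, and the remaining groups lay between 7.92 and 8.30 over all times. Junb rose by 0.39 ± 0.10 (adjusted p = 0.0206) with 4OHT after withdrawal and was 0.41 ± 0.10 higher with both treatments than with neither (adjusted p = 0.00691). The 4OHT difference with IL-7 was 0.15 ± 0.10 (adjusted p = 0.391) and the interaction 0.23 ± 0.14 (adjusted p = 0.681). Renewed quantile normalization ended both calls (0.37, adjusted p = 0.0681, and 0.29, adjusted p = 0.0865). The 4OHT call ended without either array with withdrawal alone (0.37, adjusted p = 0.123, and 0.40, adjusted p = 0.0856) or the experiment 1 array given both (0.24, adjusted p = 0.196), and the combined call without that last array (0.26, adjusted p = 0.0868) or the experiment 2 array with IL-7 alone (0.33, adjusted p = 0.068). With the block, Junb also passed for withdrawal under 4OHT at 24 h (adjusted p = 0.0303) and for 24 h against 6 h without IL-7 (adjusted p = 0.0339), as it did without the experiment 2 array given both treatments (0.40, adjusted p = 0.0224, and 0.42, adjusted p = 0.0304).

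**Figure D2:**
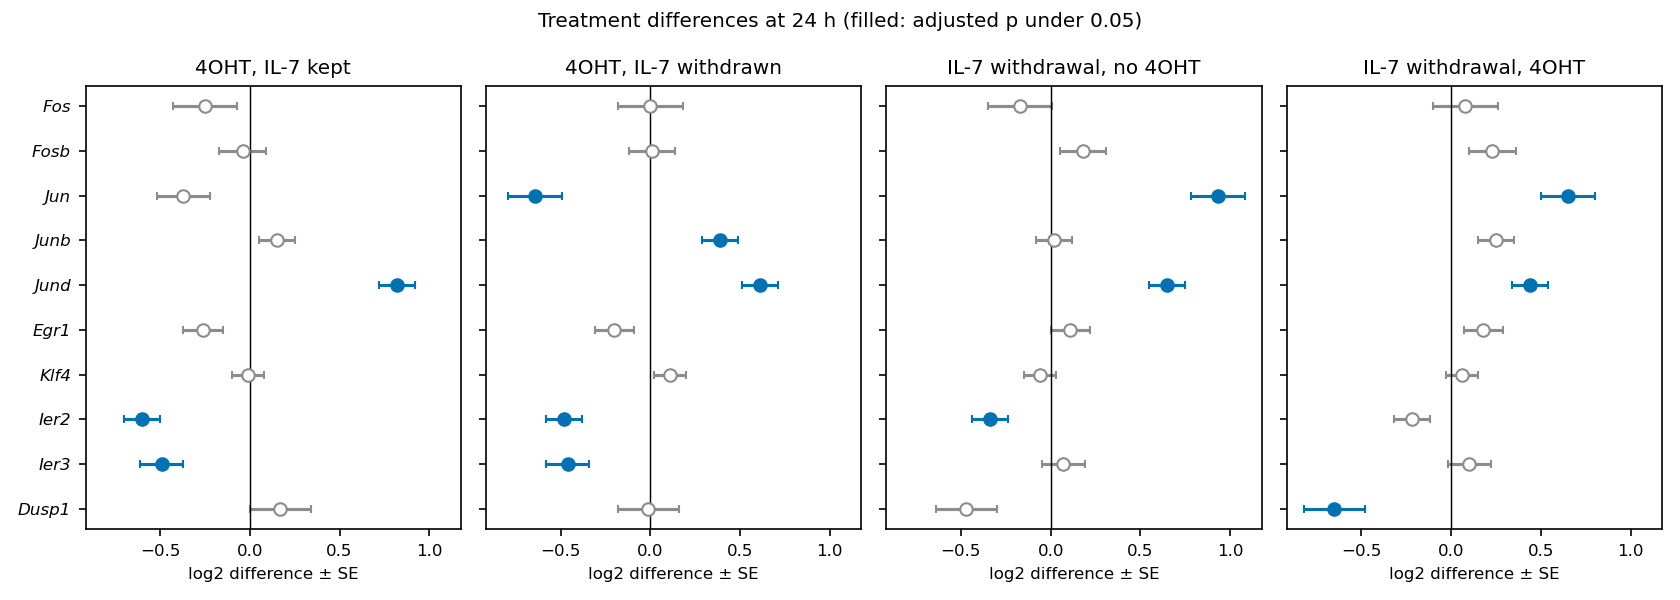
Log2 differences after 24 h (horizontal axis, points with SE) of the 10 genes (vertical axis) for 4OHT in either IL-7 setting and for IL-7 withdrawal in either 4OHT setting, n = 2 arrays per group. Filled points passed at an adjusted p under 0.05. Jund lies to the right in every panel, from 0.44 to 0.82, whereas Jun lies to the left for 4OHT and to the right for withdrawal.

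The FOS members did not pass in any of the 12 comparisons. Fos, the classical serum-responsive AP-1 partner, read between 6.23 and 6.93 over the 14 arrays, all of them below the median of all values. Its group means went from 6.78 at time 0 to 6.39 at 24 h with IL-7 and 4OHT, and its smallest adjusted p was 0.418. Fosb, a FOS subunit best known from neurons, read between 6.82 and 7.38, with a smallest adjusted p of 0.248. At 24 h the 4 treatment differences lay between -0.25 and 0.08 for Fos and between -0.04 and 0.23 for Fosb, and their 95% intervals between -0.64 and 0.46 and between -0.33 and 0.52. With the block, Fosb passed for 6 h of 4OHT culture against time 0 (adjusted p = 0.0451), where its arrays read 7.27 and 7.38 at time 0 and 6.82 and 7.22 at 6 h. Without the 6 h array of experiment 2 this difference passed too (-0.50, adjusted p = 0.0478), and without that of experiment 1 it was -0.10 (adjusted p = 0.879).

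Egr1, a zinc finger factor induced by growth factor and antigen receptor signals, likewise passed in no comparison (smallest adjusted p = 0.175). It read 7.54 and 7.47 at time 0 and 7.36 and 7.41 at 24 h with IL-7 alone, against 7.01 and 7.23 with IL-7 and 4OHT. With withdrawal alone it read 7.47 and 7.52, and with both 7.11 and 7.50. The arrays with 4OHT were lower than those without it in experiment 1, while in experiment 2 the withdrawn arrays nearly coincided. Its 4 treatment differences at 24 h lay between -0.26 and 0.18, with 95% intervals from -0.50 to 0.42. Withdrawal under 4OHT at 24 h rested on which array was kept: the difference was 0.38 (adjusted p = 0.0185) without the experiment 1 array given both treatments and -0.01 (adjusted p = 0.969) without its experiment 2 array. Leaving out the latter also made the 4OHT difference without IL-7 pass (-0.39, adjusted p = 0.0235).

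Klf4, a Krüppel-like factor that restrains B cell proliferation, passed in 2 of the 12 comparisons, both at 6 h. It read 7.93 and 7.91 at time 0, 7.48 and 7.61 at 6 h with 4OHT and IL-7, and 7.96 and 7.94 at 6 h with 4OHT and no IL-7. The 6 h cells in IL-7 were thus the low group, and no array of the other groups, which read 7.68 to 7.96, reached down to them. Klf4 fell by 0.37 ± 0.09 on the log2 scale against time 0 (adjusted p = 0.0197) and was 0.40 ± 0.09 higher with than without withdrawal at 6 h (adjusted p = 0.00867). At 24 h its 4 treatment differences lay between -0.06 and 0.11. The fall was lost without either time 0 array (-0.36, adjusted p = 0.0943, and -0.38, adjusted p = 0.0841) or the experiment 1 array of the 6 h group in IL-7 (-0.31, adjusted p = 0.165), and in a fit of the compared arrays alone (adjusted p = 0.0683). It did not pass against the 24 h culture with IL-7 alone either (-0.30, adjusted p = 0.0635). The withdrawal call was lost without the experiment 1 array of either 6 h group (0.34, adjusted p = 0.0936, with IL-7 and 0.40, adjusted p = 0.0532, without it).

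Ier2 and Ier3 fell with 4OHT at 24 h in either IL-7 setting. Ier2, a nuclear immediate early protein, read 8.50 and 8.28 at 24 h with IL-7 alone, 7.82 and 7.77 with IL-7 and 4OHT, 8.02 and 8.07 with withdrawal alone, and 7.52 and 7.61 with 4OHT and no IL-7. None of these groups overlapped, and the order was that of Jund turned round. At time 0 Ier2 read 8.13 and 8.32, and at 6 h of 4OHT 7.90 and 7.97 with IL-7 and 7.65 and 7.85 without it. The 6 h withdrawn arrays overlapped with those at 24 h with IL-7 and 4OHT.

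The 4OHT differences of Ier2 were -0.60 ± 0.10 (adjusted p = 0.00181) with IL-7 and -0.48 ± 0.10 (adjusted p = 0.00469) without it. Both treatments together lowered it by 1.77-fold, a log2 difference of -0.82 ± 0.10 (adjusted p = 2.88e-05). These 3 calls passed whichever compared array was left out. Withdrawal without 4OHT lowered Ier2 by -0.34 ± 0.10 (adjusted p = 0.0254), and with 4OHT the difference was -0.22, which passed after quantile normalization alone (-0.30, adjusted p = 0.0137). The former was lost without the experiment 1 array with IL-7 alone (-0.23, adjusted p = 0.191) or either array with withdrawal alone (-0.32, adjusted p = 0.13, and -0.37, adjusted p = 0.0927). At 6 h of 4OHT culture Ier2 differed from time 0 by -0.29 ± 0.10 (adjusted p = 0.0987, blocked 0.049). It passed after quantile normalization (-0.33, adjusted p = 0.0206) and against the 24 h culture with IL-7 alone (-0.46, adjusted p = 0.0132).

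Ier3, a stress and survival gene induced by NF-kappaB and ERK, was dim, below the median of all values on all 14 arrays. It read 6.80 and 6.81 at 24 h with IL-7 alone against 6.16 and 6.47 with IL-7 and 4OHT, and 6.99 and 6.76 with withdrawal alone against 6.31 and 6.52 with 4OHT and no IL-7. Each array with 4OHT lay below every 24 h array without it. Ier3 fell by 0.49 ± 0.12 on the log2 scale with IL-7 (adjusted p = 0.0243) and fell by 0.46 ± 0.12 without it (adjusted p = 0.022), and was lower by -0.39 ± 0.12 with both treatments than with neither (adjusted p = 0.0239). Withdrawal differences were at most 0.10 at 24 h. The call with IL-7 was lost without either array with IL-7 alone (-0.50, adjusted p = 0.0735, and -0.48, adjusted p = 0.129) or the experiment 1 array with 4OHT (-0.33, adjusted p = 0.283), and in a fit of the compared arrays alone (adjusted p = 0.0544). The call without IL-7 ended without the experiment 1 array of either group (-0.34, adjusted p = 0.214, and -0.36, adjusted p = 0.166). The combined call was lost without either array with IL-7 alone (-0.40, adjusted p = 0.0779, and -0.39, adjusted p = 0.0941) or the experiment 1 array given both (-0.29, adjusted p = 0.181).

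Dusp1, the phosphatase that switches off p38, JNK and ERK, showed no 4OHT difference that passed at 24 h, while its IL-7 withdrawal effect under 4OHT differed between 6 h and 24 h. It read 8.87 and 8.78 at time 0, 8.86 and 8.92 at 6 h with 4OHT and IL-7, and 9.11 and 9.47 at 6 h with 4OHT and no IL-7. The 24 h values were 8.87 and 8.72 with IL-7 alone, 8.96 and 8.98 with IL-7 and 4OHT, 8.08 and 8.58 with withdrawal alone, and 8.11 and 8.53 with 4OHT and no IL-7. Withdrawn cells were thus the highest group at 6 h and the lowest groups at 24 h, and the 24 h withdrawn groups overlapped each other but not the groups in IL-7. Time 0, the 6 h cells in IL-7 and the 24 h cells with IL-7 alone overlapped.

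Withdrawal under 4OHT gave a Dusp1 difference of 0.40 ± 0.17 at 6 h (adjusted p = 0.159), which did not pass, and of -0.65 ± 0.17 at 24 h (adjusted p = 0.0129). The change of this effect from 6 h to 24 h was -1.05 ± 0.24 (adjusted p = 0.023), with -1.11 in experiment 1 and -1.0 in experiment 2. Within the withdrawn cells Dusp1 was lower by -0.97 ± 0.17 at 24 h than at 6 h (adjusted p = 0.00217), a 1.96-fold difference. That call passed whichever compared array was left out, whereas the change of the effect lay between -0.85 and -1.08 with adjusted p between 0.0615 and 0.0838 without any 1 of 6 of its 8 arrays: those with IL-7 of either experiment at 6 h and at 24 h, the experiment 2 array of the 6 h withdrawn cells, and the experiment 1 array of the 24 h withdrawn cells.

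Without 4OHT the 24 h withdrawal difference of Dusp1 did not pass, except with the block (adjusted p = 0.0228), after quantile normalization (-0.54, adjusted p = 0.0337) or without the experiment 2 array with withdrawal alone (-0.72, adjusted p = 0.0198). The 4OHT differences were 0.17 ± 0.17 (adjusted p = 0.573) with IL-7 and -0.01 ± 0.17 (adjusted p = 0.986) without it. Both treatments against neither gave -0.48 ± 0.17 (adjusted p = 0.0436). The latter ended without either array with IL-7 alone (-0.40, adjusted p = 0.194, and -0.56, adjusted p = 0.0748) or the experiment 1 array given both (-0.27, adjusted p = 0.353). The withdrawal call under 4OHT ended without either array with IL-7 and 4OHT (-0.66, adjusted p = 0.0623, and -0.65, adjusted p = 0.0618) or the experiment 1 array given both (-0.44, adjusted p = 0.114).

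**Figure D3:**
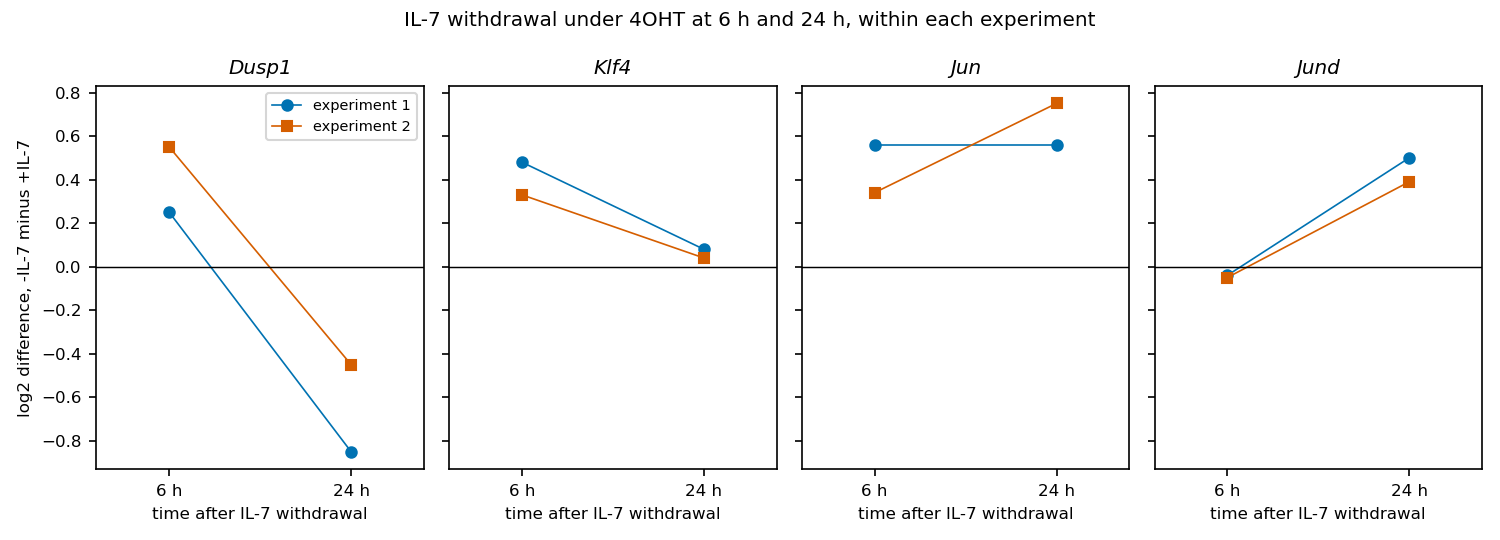
Log2 difference between cells without and with IL-7 under 4OHT (vertical axis) at 6 h and 24 h (horizontal axis), within experiment 1 (circles) and experiment 2 (squares), for 4 genes. Dusp1 crosses 0 downwards in both experiments, with changes of -1.11 and -1.0, while Jun stays above 0 and Jund rises from near 0.

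The share of the 10 members that passed was above that of all genes in 8 of the 12 comparisons, where each member makes up 10% of the list. All genes include many dim ones, while 7 of the 10 members had a mean above the median of all values. Among the 10941 genes kept by a filter on dim genes, 39.6% and 45.3% passed for withdrawal at 24 h without and with 4OHT, and 60.1% for both treatments. These shares were above those of the 10 members, dim ones included (30%, 30% and 50%). For 4OHT culture at 6 h 1 member was higher (3.92% of all genes were) and 1 lower (4.85%), where 8.77% of genes passed in either direction. With the block 5 members and 15% of genes passed. For withdrawal at 6 h 1 was higher (6.78%, with 14.3% in either direction), and with the block 2 members and 21.3% of genes passed. After 24 h of culture with IL-7 alone 2 were lower (2.36%, with 3.09% in either direction).

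At 24 h 4OHT left 1 member higher (5.22% of genes) and 2 lower (3.94%) with IL-7, where 9.16% of genes passed, and 2 higher (7.1%) and 3 lower (8.17%) without it, where 15.3% passed. Withdrawal at 24 h left 2 higher (11.2%) and 1 lower (8.78%) without 4OHT, where 20% passed, and 2 higher (12.8%) and 1 lower (11.5%) with it, where 24.3% passed. Both treatments against neither left 2 members higher (18.1%) and 3 lower (15.4%), where 33.6% passed. The interaction at 24 h called 0 members with limma, and 0 at an unadjusted p under 0.05 (0.687% of genes passed), and 0 with the block (2.25% of genes).

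Between 6 h and 24 h of 4OHT 0 members passed with IL-7 by limma, and 2 at an unadjusted p under 0.05 (3.66% of genes passed). With the block 1 member and 9.12% of genes passed. Without IL-7 1 was lower (6.81%, with 11.9% in either direction), and with the block 3 members and 18.7% of genes passed. The withdrawal effect was lower at 24 h than at 6 h for 1 member (3.65%, with 5.01% in either direction), and with the block 2 members and 9.89% of genes passed. In all, 7 of 10 members passed in at least 1 of the 12 comparisons, as did 41.3% of genes. The median range of the 7 group means was 0.48 over the members and 0.27 over all genes.

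Of the other genes around the ERK pathway, the ERK phosphatases and the Sprouty and SPRED inhibitors, several of which ERK itself induces, held some of the widest 4OHT differences. Of 12 such genes measured, 5 fell and 0 rose at 24 h with IL-7, and 5 fell and 2 rose without it. Over all genes 9.16% passed with IL-7 and 15.3% without it. The median log2 difference was -0.39 in both, against -0.04 and 0.01 over all genes. Spred2, a membrane inhibitor of RAF activation, read 9.92 and 9.78 with IL-7 alone and 8.59 and 8.63 with IL-7 and 4OHT, a difference of -1.24 ± 0.14 (adjusted p = 0.000185). Without IL-7 it read 10.07 on both arrays and 7.75 and 7.94 with 4OHT, a difference of -2.22 ± 0.14 (adjusted p = 7.64e-07). Dusp6, the cytoplasmic ERK phosphatase, fell by 1.09 ± 0.19 on the log2 scale with IL-7 (adjusted p = 0.00309) and fell by 1.81 ± 0.19 without it (adjusted p = 3.42e-05).

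Dusp7, a close relative of Dusp6, differed by -0.59 ± 0.08 with IL-7 (adjusted p = 0.000468). Spry2, a feedback inhibitor of receptor kinase signalling, differed by -1.08 ± 0.08 without IL-7 (adjusted p = 1.82e-06). On withdrawal at 24 h the same 12 genes gave 4 higher and 1 lower without 4OHT, and 3 higher and 3 lower with it. Over all genes 20% and 24.3% passed there. Every one of the 12 passed in at least 1 of the 12 comparisons, as did 41.3% of all genes. Among 10 kinases of the RAS, RAF, MEK, ERK and JNK cascade, 1 was higher and 0 lower with 4OHT in IL-7, and 3 were higher and 1 lower without IL-7, with medians of 0.01 and -0.08. The shares of all genes passing for 4OHT were 9.16% and 15.3%.

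**Figure D4:**
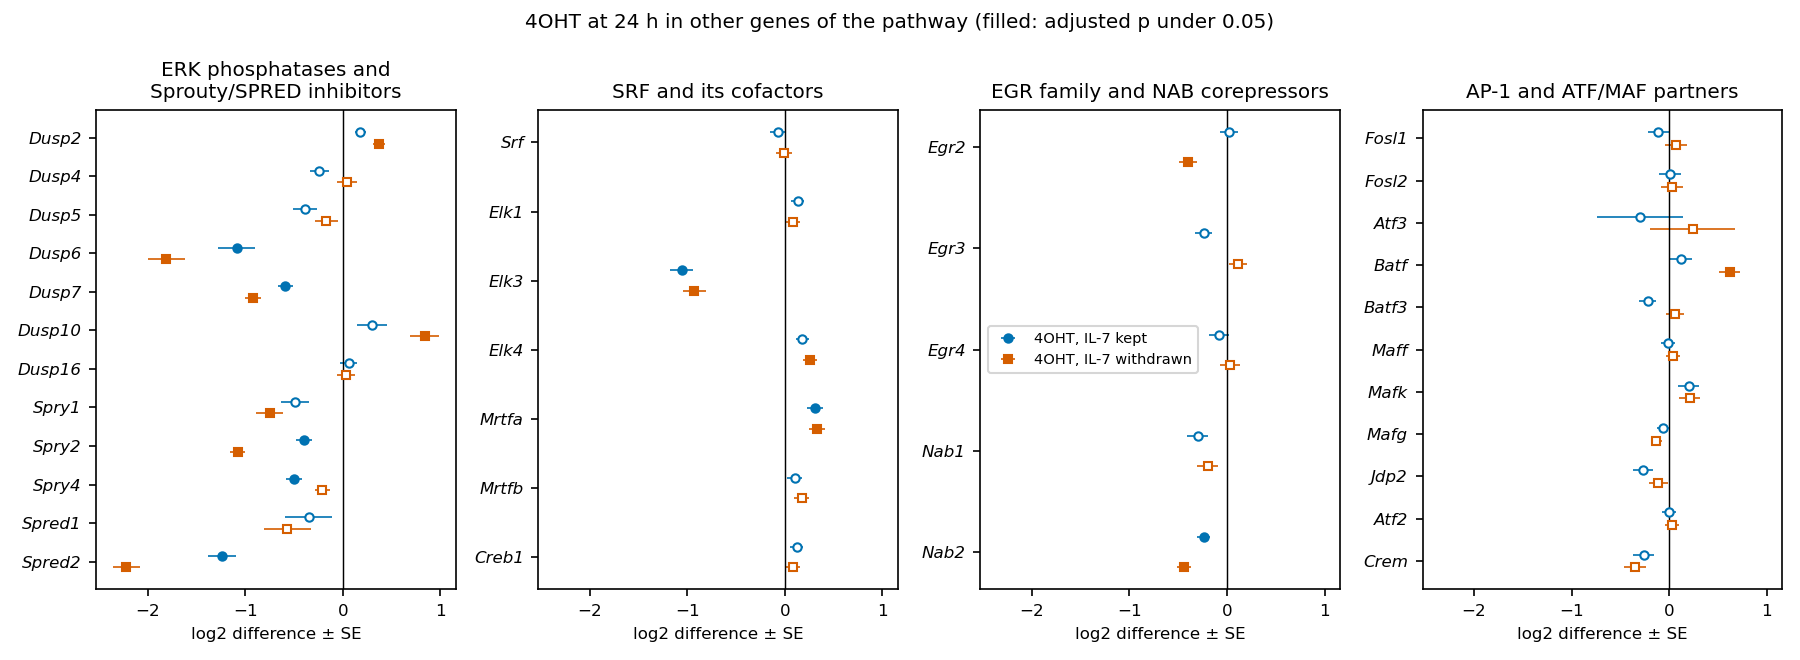
Log2 difference for 4OHT at 24 h (horizontal axis, points with SE, n = 2 arrays per group) with IL-7 (circles) and without it (squares), for genes of 4 lists (vertical axis). Filled points passed at an adjusted p under 0.05. Spred2 and Dusp6 lie far to the left, at -1.24 and -1.09 with IL-7, as does Elk3, whereas most AP-1 partners lie near 0.

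SRF and its cofactors act directly on immediate early promoters. On IL-7 withdrawal at 24 h 5 of 7 were higher and 0 lower without 4OHT, and likewise with it, with medians of 0.29 and 0.31 against -0.01 and 0.06 over all genes. Of all genes 11.2% and 12.8% were higher there, and 20% and 24.3% passed in either direction. Elk3, a ternary complex factor that can repress its targets, read 10.04 and 9.87 at 24 h with IL-7 alone, 9.10 and 8.69 with IL-7 and 4OHT, 10.77 and 10.72 with withdrawal alone, and 9.96 and 9.67 with 4OHT and no IL-7. It was high in withdrawn cells and low in cells with 4OHT, as Jun was. Elk3 rose by 0.79 ± 0.12 (adjusted p = 0.000851) and 0.93 ± 0.12 (adjusted p = 0.000196) on withdrawal without and with 4OHT. With 4OHT it differed by -1.06 ± 0.12 (adjusted p = 0.000198) in IL-7 and -0.93 ± 0.12 (adjusted p = 0.000241) without it. Mrtfa, an actin-regulated SRF coactivator, was 0.31 ± 0.08 higher with 4OHT in IL-7 (adjusted p = 0.0295), so that the list had 1 higher and 1 lower there, and 2 higher and 1 lower without IL-7. For these 4OHT comparisons 9.16% and 15.3% of all genes passed.

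Of the 5 other EGR and NAB genes, 1 fell with 4OHT in IL-7 (2 with the block, where 16.7% of all genes passed) and 2 fell without IL-7, and none of the 5 rose. In the fit without the block 9.16% and 15.3% of all genes passed. Nab2, a corepressor of EGR proteins and itself an EGR target, differed by -0.24 ± 0.07 (adjusted p = 0.0421) and -0.44 ± 0.07 (adjusted p = 0.000499). Egr2, an EGR factor of lymphocyte development, differed by -0.40 ± 0.09 (adjusted p = 0.0121) without IL-7 and rose by 0.44 ± 0.09 on withdrawal without 4OHT (adjusted p = 0.00532). In the KLF family of 10 other genes, 3 were higher and 0 lower on withdrawal at 24 h without 4OHT, and 4 higher and 0 lower with it. Of all genes 11.2% and 12.8% were higher there, and 20% and 24.3% passed in either direction. Klf3, a transcriptional repressor with a role in B cell development, rose by 0.83 ± 0.09 (adjusted p = 9.2e-05) and 0.80 ± 0.09 (adjusted p = 7.21e-05) in these comparisons.

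The dimer partners of AP-1 were measured as 11 genes. Of these FOS-like, ATF, BATF and MAF genes 0 passed for 4OHT with IL-7 by limma (3 at an unadjusted p under 0.05, 0 with the block), against 9.16% of all genes. Without IL-7 1 was higher and 0 lower with 4OHT, or 1 and 1 with the block, where 15.3% and 22.4% of all genes passed. It was Batf, an AP-1 factor that lacks a transactivation domain, which read 7.41 and 7.4 with withdrawal alone and 7.89 and 8.16 with 4OHT and no IL-7, a difference of 0.62 ± 0.11 (adjusted p = 0.00131). On withdrawal at 24 h 2 were higher and 1 lower without 4OHT, and 2 higher and 0 lower with it (4 higher with the block), against 20% and 24.3% of all genes (33% with the block). Batf was the one that fell, by -0.60 ± 0.11 (adjusted p = 0.00167), and Crem, a cAMP-responsive factor, rose by 0.37 ± 0.11 (adjusted p = 0.0346), both without 4OHT. Fosl2, a FOS family member, rose by 0.37 ± 0.11 (adjusted p = 0.0294) and 0.39 ± 0.11 (adjusted p = 0.0198) on withdrawal at 24 h without and with 4OHT.

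Other immediate early genes moved both ways. Of 20 measured, 6 were higher and 3 lower with 4OHT in IL-7, and 6 higher and 5 lower without IL-7. Over all genes 9.16% and 15.3% passed. Nr4a1, an orphan nuclear receptor induced by antigen receptor signals, read 11.12 and 11.06 at 24 h with IL-7 alone and 8.81 and 8.72 with 4OHT, a difference of -2.33 ± 0.11 (adjusted p = 3.67e-07). Without IL-7 it read 12.01 and 11.92, and 9.05 and 8.87 with 4OHT, a difference of -3.00 ± 0.11 (adjusted p = 1.52e-08). Gadd45b, a stress sensor upstream of p38 and JNK, was higher by 1.39 ± 0.12 (adjusted p = 1.38e-05) and 1.62 ± 0.12 (adjusted p = 1.61e-06). Zfp36, whose product destabilises messenger RNAs with AU-rich elements, was 1.28 ± 0.09 higher with 4OHT in IL-7 (adjusted p = 3.55e-06). Myc differed by -2.70 ± 0.11 with 4OHT without IL-7 (adjusted p = 1.7e-08), while its means in IL-7 were 12.87 without and 12.64 with 4OHT. Of the 20 it was the 1 gene that passed for the interaction, at -2.47 ± 0.15 (adjusted p = 3.05e-05), where 0.687% of all genes passed. With the block 2 of the 20 and 2.25% of all genes passed there. Each of these 4OHT changes was wider than that of any of the 10 members in the same comparison.

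Likeness to the members was described over the 7 group means, among 4868 genes whose means spanned at least 0.5 and lay above the median. Since 7 points share the same arrays and many genes share a broad pattern, the correlations carry no test. Jun was most like Tmem219 (Pearson r = 0.999), Spen (0.988) and Gab2 (0.986), and 28 genes exceeded 0.95. Jund was most like AA388235 (0.987), Sla (0.981), an adaptor that dampens antigen receptor signals, and Tmem150a (0.979), with 34 genes over 0.95. Dusp1 had only 4 such genes, led by Paqr3 (0.972), Uevld (0.971) and Magi3 (0.959).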

How the data were processed

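Per the labels' protocols, biotin-labelled targets were made from 150 ng of total RNA, and per the submitters' processing notes the arrays were processed with Affymetrix Expression Console 1.1 and RMA, a procedure of background correction, quantile normalization and probe summary. The authors deposited log2 values for 35556 probe sets, which were used without further scaling. The build and further RMA settings were not given in the sources used here. Through the platform annotation 21789 probe sets had 1 symbol and 1621 several; the brightest single-symbol probe set was kept for each of 19938 genes. The median log2 difference of all genes lay between -0.037 and 0.058 in every comparison, so values are relative to the bulk of genes.

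The tests used limma 3.58.1 (R 4.3.3; lmFit, eBayes), two-sided, in 1 fit over 14 arrays with a mean per group (7 residual and 4.83 prior degrees of freedom, median SE 0.091), with Benjamini-Hochberg adjustment over all genes. The procedure was tested on simulated data. Arrays limit precision by their number. The labels give the replicate numbers as independent experiments, and deviations from group means of same-numbered arrays correlated at 0.124 to 0.631 (median 0.392) in 21 pairs of groups, so the numbers pair the arrays. The block was an alternative, as were renewed quantile normalization, a filter on dim genes, a mean-variance trend, the mean over probe sets, the compared arrays alone and leaving out each array.

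Members and lists were chosen with earlier results of these data known. All members are reported; within a list and comparison at most the 3 passing genes with the largest differences are named. For likeness, the 3 members with the widest range of group means and the 3 most correlated genes each were named. Promoter windows and motif letters come from RefSeq tables.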

Additional observations from a re-analysis of the deposited data

Results flagged for a closer look

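The effect of IL-7 withdrawal on Dusp1 under 4OHT differed between 6 h and 24 h, by a test of that difference itself. The change of the effect was -1.05 on the log2 scale (limma, adjusted p = 0.023 over all genes), from a difference of 0.40 at 6 h to one of -0.65 at 24 h, and went the same way in both experiments. The 6 h difference itself did not pass (limma, adjusted p = 0.159). As described above, the call for the change was lost when most of its arrays were left out singly.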

How the results depend on the processing

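The pairing by experiment, fitted as a block, ended no member's call and raised the count of passing members from 2 to 5 for 4OHT culture at 6 h (Fosb, Jun and Ier2 added), from 1 to 2 for withdrawal at 6 h (Jun), from 0 to 1 for 24 h against 6 h with IL-7 (Jun), from 1 to 3 without IL-7 (Junb and Jund) and from 1 to 2 for the change of the withdrawal effect with time (Jund). Over all genes the share passing rose as well, from 8.77% to 15%, 14.3% to 21.3%, 3.66% to 9.12%, 11.9% to 18.7% and 5.01% to 9.89%. Both other added calls, of Dusp1 and Junb, took counts from 3 to 4 (20% to 27.6% and 24.3% to 33% of genes). Fitting the compared arrays alone gave 1 member for culture at 6 h (4.43% of all genes), 2 for withdrawal at 6 h (9.52%) and 0 for culture at 24 h (0.642%). It gave 1 for 24 h against 6 h with IL-7 (2.78%), and 2 in place of 3 for 4OHT with IL-7 (6.63%, Ier3 lost). Renewed quantile normalization gave 1 member for culture at 24 h (2.85% of all genes), 2 for 24 h against 6 h without IL-7 (12.7%) and 2 for the change of the withdrawal effect (5.64%). It also called Ier2 for culture at 6 h and for withdrawal with 4OHT at 24 h, and Dusp1 for withdrawal without 4OHT. Both Junb calls, for 4OHT without IL-7 and for both treatments, were lost. A filter on dim genes gave 2 and 2 for the last pair of counts (23.5% and 10.6% of the genes kept), Jund being the gain, and called Jun for culture at 6 h (17.7%). The cause of these differences was not tested.

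Without 1 array the counts ranged from 0 to 3 (culture at 6 h), 0 to 1 (withdrawal at 6 h), 0 to 2 (culture at 24 h), 2 to 3 (4OHT with IL-7), 2 to 6 (4OHT without IL-7), 2 to 3 (each withdrawal comparison at 24 h), 0 to 0 (interaction), 2 to 5 (both treatments), 0 to 0 and 1 to 3 (24 h against 6 h with and without IL-7) and 0 to 2 (change of the withdrawal effect). An arm then holds 1 array, assumed to vary like the others. The share of all genes passing also fell in nearly every such fit. Whether members lost calls more often than other genes was not tested. Of 120 pairs of a member and a comparison, 39 passed under some setting. Signs reversed for Jun at 6 h against the 24 h control, an alternative chosen after seeing the data (0.14), which also ended the Klf4 call (-0.30), called Ier2 (-0.46) and moved Jund from 0.45 to 0.99, and for Egr1 on withdrawal under 4OHT without 1 array (-0.01 without the experiment 2 array given both treatments, the highest value being 0.38 without its experiment 1 array). Of the 81 pairs never called, 11 changed sign under quantile normalization and 33 without 1 array, none of them larger than 0.19. These alternatives were run for the 10 members, not for the other pathway genes, which have the block alone. The mean-variance trend changed no call. Nor did the mean over probe sets, which could not alter the members' own values, since each had 1 probe set. With 2 arrays per group and RMA values alone, neither detection limits nor saturation were read. The dim filter left Ier3 and the other dim members untested.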
